A study of Mus musculus with 2 samples.

Results

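Strong accessible sites with no called footprint were rare in both libraries. They were chosen by the deposited peak signal and footprints of the same library, as the peaks whose signal reached the 80th percentile of their list and that overlapped none of that library's footprints by even 1 bp. Replicate 1 had 51 of them among 18825 strong peaks and 93641 peaks in all, and replicate 2 had 40 among 13325 strong peaks and 66196 peaks. The comparison set was the remaining 18774 and 13285 strong peaks, all with footprints. DNase-seq had been run on tissue from the frontal cortex of B6CASTF1/J females, the F1 of C57BL/6J and CAST/EiJ, at an age of 14 days and without any labelled treatment. The single group has 2 libraries, biological replicates 1 and 2, which have their own biosamples but the same donor label. Both carry the label 3x, which the sources used here do not explain, so that animals may have been pooled and differences between the libraries may be partly technical. A single group allows no test between conditions, and values are therefore given per library.

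DNase I cuts DNA that is not wound on nucleosomes, so dense cutting marks promoters, enhancers and insulators. Within such a site a bound protein shields a short stretch from the enzyme, and this local dip in cutting is called a footprint. A factor that stays on DNA for long, such as the insulator protein CTCF, leaves a deep footprint, while factors with short residence times are known to leave shallow ones or none. A footprint call also needs enough cuts around the protected bases, and the deposited footprints had a median length of 10 bp in both libraries. Peak signal is the authors' read-depth normalized value, on a scale that is not stated. Where a site is given a signal in the other library, it is that of the strongest peak there sharing at least 1 bp with it. That peak can differ in width and edges from the one described.

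Footprint-free sites of 3 kinds are shown by sequence, on the plus strand of mm10 (GRCm38), as RefSeq's copy of that assembly gives them. The first had no footprint in either library. It is shown for the 2 places that were strong and footprint-free in both libraries and for an isolated intronic site. The Actl6a stretch is the 300 bases of the peak that follow its 5' untranslated part, and the other 2 are whole peaks. No letter is in capitals because no footprint was called.
Actl6a promoter, chr3:32708856-32709155: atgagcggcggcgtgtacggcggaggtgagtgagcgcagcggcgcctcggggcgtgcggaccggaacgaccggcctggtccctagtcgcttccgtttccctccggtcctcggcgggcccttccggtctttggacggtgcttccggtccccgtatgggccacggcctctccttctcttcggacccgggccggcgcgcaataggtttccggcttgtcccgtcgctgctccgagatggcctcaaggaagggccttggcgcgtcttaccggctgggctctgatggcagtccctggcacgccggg
Malat1 upstream site, chr19:5803041-5803280: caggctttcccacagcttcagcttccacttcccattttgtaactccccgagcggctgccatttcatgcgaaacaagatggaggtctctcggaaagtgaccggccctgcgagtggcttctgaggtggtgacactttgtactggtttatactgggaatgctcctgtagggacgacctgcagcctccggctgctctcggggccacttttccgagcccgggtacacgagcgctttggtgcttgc
Gramd1b intron, chr9:40397201-40397400: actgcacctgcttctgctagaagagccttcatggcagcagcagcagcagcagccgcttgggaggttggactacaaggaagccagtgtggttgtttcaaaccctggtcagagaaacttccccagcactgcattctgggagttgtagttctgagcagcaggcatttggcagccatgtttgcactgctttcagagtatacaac

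The second kind was a narrow peak with its own library's footprints lying just outside its edges. The 3 stretches below hold a 60 bp peak with 30 bases on each side, and capitals mark footprints of the same library. In each, the capitals stop short of the peak, which runs from the 31st base for 60 bases.
site near Gm49539, replicate 1, chr15:85634631-85634750: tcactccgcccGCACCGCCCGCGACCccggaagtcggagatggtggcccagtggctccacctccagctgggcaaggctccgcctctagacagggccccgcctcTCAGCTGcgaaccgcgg
Reep6 promoter, replicate 2, chr10:80329811-80329930: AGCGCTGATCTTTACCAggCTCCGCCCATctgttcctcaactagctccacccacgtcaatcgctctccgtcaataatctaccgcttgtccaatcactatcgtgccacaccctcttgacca
Mast3 promoter, replicate 2, chr8:70797371-70797490: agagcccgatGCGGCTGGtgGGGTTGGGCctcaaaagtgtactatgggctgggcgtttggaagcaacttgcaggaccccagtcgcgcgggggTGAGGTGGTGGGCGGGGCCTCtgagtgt

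The third kind had footprints in the other library at the same place. Here the whole peak is printed and capitals mark the footprints that the other library had inside it, none of which was called in the library that made the peak footprint-free.
Insig1 intron, free in replicate 1, chr5:28071901-28072160: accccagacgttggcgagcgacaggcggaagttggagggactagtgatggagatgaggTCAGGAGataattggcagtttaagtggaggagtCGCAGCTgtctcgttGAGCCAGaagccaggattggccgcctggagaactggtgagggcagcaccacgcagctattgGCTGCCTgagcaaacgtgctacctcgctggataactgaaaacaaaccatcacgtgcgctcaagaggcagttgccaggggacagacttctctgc
site near Ttc7b, free in replicate 1, chr12:100527801-100528060: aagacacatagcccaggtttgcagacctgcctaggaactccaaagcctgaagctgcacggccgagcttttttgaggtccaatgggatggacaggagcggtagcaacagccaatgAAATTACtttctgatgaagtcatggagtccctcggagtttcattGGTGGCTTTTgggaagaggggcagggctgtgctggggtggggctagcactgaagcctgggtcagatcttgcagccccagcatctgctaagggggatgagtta
site near Eif2s3x, free in replicate 2, chrX:94177961-94178060: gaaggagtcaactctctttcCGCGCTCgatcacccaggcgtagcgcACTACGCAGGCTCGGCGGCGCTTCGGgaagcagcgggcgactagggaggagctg
site near Zfp239, free in replicate 2, chr6:117879821-117880080: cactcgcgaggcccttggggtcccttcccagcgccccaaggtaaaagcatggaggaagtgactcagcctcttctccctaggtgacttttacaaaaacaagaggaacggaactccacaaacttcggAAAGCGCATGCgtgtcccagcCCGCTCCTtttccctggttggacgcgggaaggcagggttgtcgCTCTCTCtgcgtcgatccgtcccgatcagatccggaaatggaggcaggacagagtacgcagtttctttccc

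The share of peaks without a footprint fell steeply as signal rose. Over all peaks, 21.3% in replicate 1 and 24.2% in replicate 2 had no footprint of their own library. In the lowest signal decile the share was 69.3% in replicate 1 and 76.9% in replicate 2. In the ninth decile it was 0.513% and 0.453%, and in the top decile 0.0107% (1 peak) and 0.106% (7 peaks). Above the 80th percentile it was 0.271% in replicate 1 (exact binomial 95% interval 0.202% to 0.356%) and 0.3% in replicate 2 (0.215% to 0.409%), a mean of 0.286% ± 0.0207 (SD, n = 2). These intervals, like all intervals here, cover counting error only. Signal and footprints chose the members, so this gradient is a description. A typical strong peak held a median of 4 footprints in each library, and 528 and 489 strong peaks held exactly 1.

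**Figure D1:**
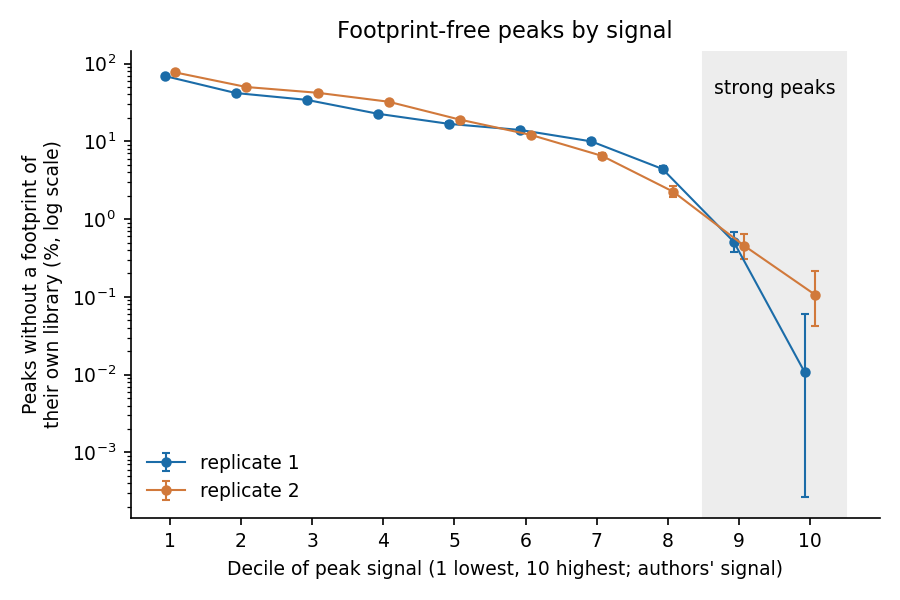
Share of peaks without a footprint of their own library (%, log scale) in each decile of peak signal, with exact binomial 95% intervals. The shares are 69.3% and 76.9% in the lowest decile and 0.0107% and 0.106% in the highest, and the grey band marks the strong peaks.

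Most members therefore lay close to the signal threshold, which was 1.507 in replicate 1 and 1.518 in replicate 2. Their median signal was 1.72 in replicate 1 and 1.69 in replicate 2, and 9 and 12 of them reached a signal of 2. Peaks just inside the threshold in replicate 1 lay near Eif4e2 and Sp2 (signal 1.507 each) and Sema4c (1.51), and footprint-free peaks just outside it lay near Mcph1 (1.5002), Jmjd6 and Fosb (1.49 each). In replicate 2 the 3 just inside lay near Cdk5r1, Malat1 and Ruvbl2 (1.518 each) and the 3 just outside near Dnpep, Lrrtm3 and 1810022K09Rik (1.51 each). Because footprint-free peaks were weak for strong peaks, the peaks with footprints were weighted over 20 signal bins to the same signal distribution in the comparisons that follow.

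The deposited FDR of the cut rate, made from the same cuts as the peaks, covered the members as it did other strong peaks. It lists stretches of bases where cutting exceeds its surroundings at an FDR below 0.05, and such stretches covered every base of 50 of 51 members in replicate 1 and of 40 of 40 in replicate 2. The median coverage was 100% in footprint-free peaks and in peaks with footprints alike. The best −log10 FDR inside a member had a median of 14.7 in replicate 1, against 12.6 in equally strong peaks with footprints. In replicate 2 the medians were 13.1 without footprints and 12.9 with them.

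Among the shares compared, position next to a stronger peak differed most between the groups. In replicate 1, 37 of 51 members (72.5%, exact 95% interval 58.3% to 84.1%) had a stronger peak of the same library within 500 bp, against 10.7% of equally strong peaks with footprints. In replicate 2 it was 26 of 40 members (65%, 48.3% to 79.4%) against 8.55%. The difference averaged 59.1 percentage points ± 3.79 (SD, n = 2 libraries). The contrast was as plain among promoter peaks alone, at 77.1% against 20.9% in replicate 1 and 68.8% against 13.4% in replicate 2. Away from promoters, 62.5% of members against 5.54% in replicate 1 and 50% against 3.64% in replicate 2 had such a neighbour. All peaks entering this comparison were called by the authors, whose rule for splitting neighbouring peaks is not given in the sources used here, and its part in the result was not tested.

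The neighbours themselves were footprinted, as nearly every strong peak was. A neighbour stronger than a member is a strong peak by construction, and 99.7% of strong peaks in each library had footprints. All 37 stronger neighbours in replicate 1 and all 26 in replicate 2 had them, with medians of 5 and 5.5 footprints, so nothing is read from that count. The neighbour's signal was a median of 3.15 times that of the footprint-free peak in replicate 1 (range 1.25 to 7.79) and 2.32 times in replicate 2 (1.02 to 6.31). The gap between them had a median of 140 bp in replicate 1 and 70 bp in replicate 2. The stronger neighbour was the one nearer to an annotated transcription start site (TSS) in 23 of 37 cases and in 17 of 26. Its median distance to a TSS was 43 bp in replicate 1 and 85 bp in replicate 2, against 304 and 131 bp for the footprint-free peaks beside them. These TSS counts and distances have no comparison value from footprinted peaks with a stronger neighbour. They are therefore not read as a trait of the members.

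Single sites, picked among the members with a stronger neighbour, show the distances and signals. At Zfp143, which encodes a zinc finger activator of small nuclear RNA and many protein-coding promoters, the footprint-free peak had a signal of 1.55 in replicate 1. It lay 120 bp from a peak of signal 12.1 with 7 footprints. At Sp2, a member of the Sp family that binds GC boxes, the values were 1.51 for the footprint-free peak and 7.99 for a neighbour 60 bp away with 5 footprints. At Ruvbl2, an AAA+ ATPase of chromatin remodelling complexes, the replicate 2 values were 1.52 for the footprint-free peak and 9.57 for a neighbour 100 bp away with 4 footprints. Per1, a repressor of the circadian clock, had a footprint-free intronic peak of 1.77 in replicate 1, 380 bp from a peak of 4.49 with 5 footprints. The strongest member of replicate 2, at the promoter of Ears2, a mitochondrial glutamyl-tRNA synthetase, had 3.17 in replicate 2 and 5.99 in replicate 1, where 1 footprint lay inside it. In replicate 2 it adjoined a peak of 4.09 with 7 footprints.

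**Figure D2:**
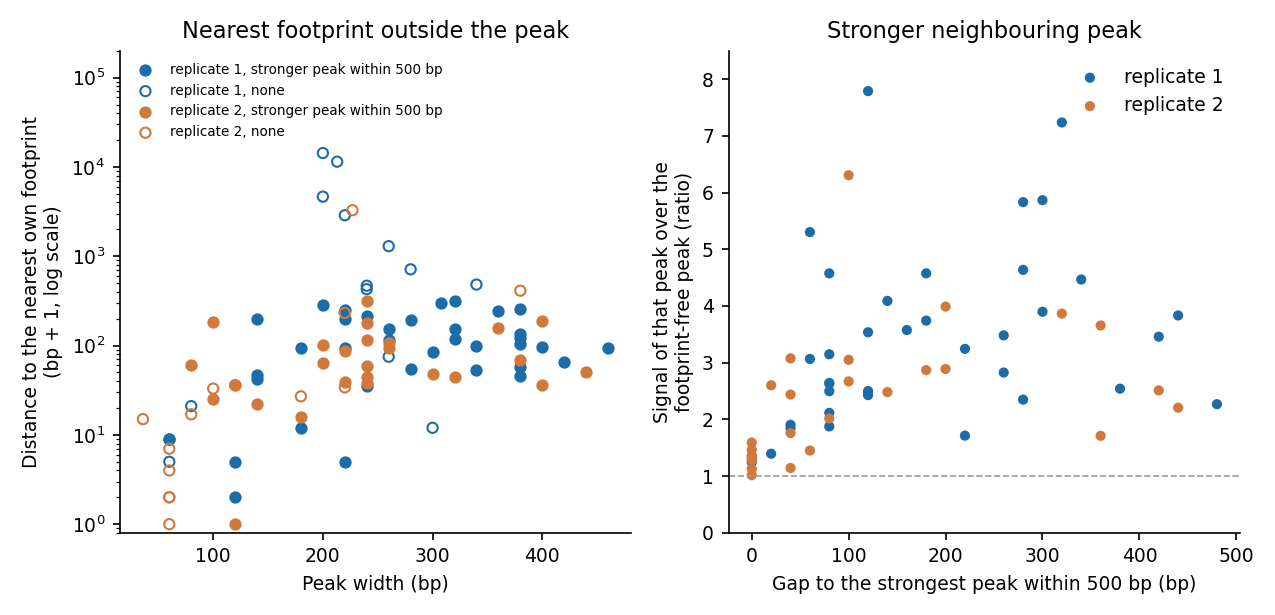
Left, width of each footprint-free strong peak (bp) against the distance to the nearest footprint of its own library (bp + 1, log scale), filled where a stronger peak lies within 500 bp. Right, gap (bp) to that stronger peak against its signal over the signal of the footprint-free peak. The narrow 60 bp peaks sit within 10 bp of a footprint, the peaks more than 1000 bp from any footprint have no stronger neighbour, and the signal ratio runs up to 7.79.

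Some members had a footprint just outside their edges. A footprint not overlapping the peak lay within 20 bp of 8 members of replicate 1 (15.7%, 7.02% to 28.6%), against 12.9% of equally strong peaks with footprints. It did so for 9 members of replicate 2 (22.5%, 10.8% to 38.5%), against 11.8%, so that both intervals held the comparison share. Within 50 bp it was 13 members (25.5%) against 20.2% in replicate 1, and 23 members (57.5%, 40.9% to 73%) against 19.9% in replicate 2. Only in replicate 2 and at 50 bp did the interval of the members lie above the comparison share. These distances come from the same footprints that chose the members, so they are a description and nothing further is read from the intervals. Narrow peaks were more frequent among members. Peaks of 100 bp or less made up 4 of 51 members (7.84%) in replicate 1, against 0.529% of equally strong peaks with footprints, and 11 of 40 members (27.5%) in replicate 2, against 1.15%. Of these narrow members, 3 of 4 and 7 of 11 had a footprint within 20 bp, against 60% and 40.3% of equally strong narrow peaks with footprints. Seen from the other side, 3.31% of the 121 narrow strong peaks of replicate 1 and 7.43% of the 148 of replicate 2 had no footprint, whereas the share was 0.067% and 0.0862% among those wider than 150 and up to 200 bp. A narrow peak has fewer bases that a footprint can overlap, and how far this accounts for the shares was not tested.

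The highest signal of any member belonged to a narrow peak. The 60 bp site on chromosome 15, in intergenic sequence 11392 bp upstream of the start of the lincRNA Gm49539, had a signal of 6.35 in replicate 1 and 3.17 in replicate 2. It is the first of the flanked sequences above, with footprints 4 bp from the nearer edge, and replicate 2 had 1 footprint inside it. The footprint on its other side contains CAGCTG, an E-box. Another copy of CAGCTG lies inside the peak, where replicate 1 called no footprint. At Reep6, which encodes a membrane protein that shapes the endoplasmic reticulum, the 60 bp promoter peak had 2.98 in replicate 2. The replicate 1 peak overlapping it had 5.61, and the nearest replicate 2 footprint was 1 bp away. Mast3, a microtubule-associated serine/threonine kinase, had 1.72 in replicate 2 and 2.59 in replicate 1, also with a footprint 1 bp from the edge. At Rpsa, which encodes a small ribosomal subunit protein, a 60 bp promoter peak had 2.44 in replicate 2, with a footprint directly adjoining it. The replicate 1 peak overlapping it had 5.21. The narrowest member, 36 bp wide, lay upstream of Cdk5r1, which encodes the p35 activator of the neuronal kinase Cdk5. It had 1.52 in replicate 2, with a footprint 14 bp away. The replicate 1 peak overlapping it had 3.21, and 1 replicate 1 footprint lay inside the 36 bp. The 4 sites of 60 bp stood above the threshold and had a footprint of the same library within 4 bp of the peak's edge.

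The members divided as follows by these 2 properties. In replicate 1, 31 members had only a stronger neighbour, 2 had only a footprint within 20 bp, 6 had both and 12 had neither. In replicate 2 the counts were 24, 7, 2 and 7. The 12 of replicate 1 were nearest to Insig1, Lrrc47, Lrrtm1, Ttc7b, Lrrn3, Nucks1, Tmem38a, Gramd2, Gramd1b, Chn1, Rnf145 and Sipa1l1. The 7 of replicate 2 were nearest to Nudc, Eif2s3x, Gcdh, Mir99ahg, Zfp444, Kcnq3 and Gm16253. Footprints were over 1000 bp away from only 5 members of replicate 1 (near Lrrc47, Ttc7b, Gramd2, Gramd1b and Chn1) and 1 of replicate 2 (near Gm16253).

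Of these members, 3 near genes known from neurons are described here, chosen after their values were seen. Lrrtm1, a postsynaptic adhesion protein of excitatory synapses, had a promoter peak of 2.11 in replicate 1 without a footprint and 1.25 in replicate 2 with 4. Chn1, a Rac GTPase-activating protein of axon guidance, had 1.57 in replicate 1 and 0.926 in replicate 2 and no footprint in either. Kcnq3, a subunit of the potassium channel of the M current, had an intronic peak of 1.59 in replicate 2 without a footprint and 2.63 in replicate 1 with 3. These names are those of the nearest start site, and they do not say which gene a site acts on.

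Footprint-free sites were promoter sites more often than equally strong peaks with footprints. A peak was called a promoter peak when its midpoint lay within 500 bp of a TSS in GENCODE M21. Promoter peaks made up 35 of 51 members (68.6%, 54.1% to 80.9%) in replicate 1, against 39.2%, and 32 of 40 (80%, 64.4% to 90.9%) in replicate 2, against 51.1%. Within 1000 bp of a TSS lay 46 members (90.2%) of replicate 1 against 45%, and 36 (90%) of replicate 2 against 55.6%. Without the weighting on signal, strong peaks with footprints were at promoters in 58.2% and 61.2%, and the mean difference was 14.6 percentage points in place of 29.2. At the 90th percentile, with 1 and 7 members, it was −26.8, from −89.5 in replicate 1 and 35.8 in replicate 2. The other members of replicate 1 were 8 intronic, 5 intergenic, 2 noncoding exonic and 1 coding exonic peaks. Those of replicate 2 were 6 intergenic, 1 intronic and 1 noncoding exonic.

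**Figure D3:**
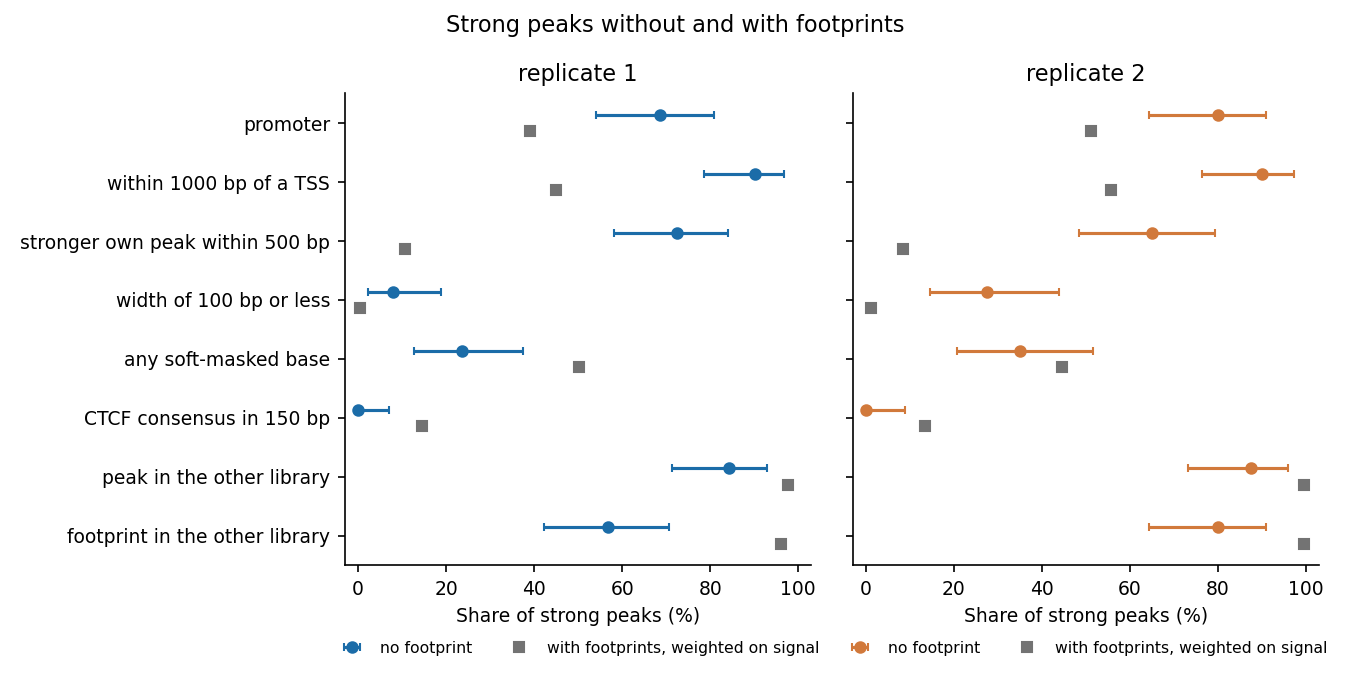
Share (%) of strong peaks with each property, for footprint-free peaks (coloured circles, exact binomial 95% intervals) and for peaks with footprints weighted to the same signal (grey squares), one panel per library. The stronger neighbour separates the groups most, at 72.5% against 10.7% in replicate 1 and 65% against 8.55% in replicate 2.

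GC content was higher in members over all sites and away from promoters, and near equal among promoter peaks. The median was 62.1% in members against 56.4% in equally strong peaks with footprints in replicate 1, and 61.8% against 58% in replicate 2. Among promoter peaks alone the medians were 65.5% against 65% and 65.2% against 64.7%, a mean difference of 0.463 percentage points. Away from promoters they were 58.1% against 53% in replicate 1 and 56.0% against 52.5% in replicate 2. Over all peaks the direction turned at the 90th percentile (−2.45) and with the shorter peak list (−3.65). The CpG observed-to-expected ratio had a median of 0.738 in members against 0.459 in replicate 1, and 0.832 against 0.607 in replicate 2. Within promoters it was 0.75 against 0.772 and 0.843 against 0.824. Away from promoters members kept a higher ratio, at 0.68 against 0.315 (16 members) and 0.704 against 0.305 (8 members), and 11 of these 16 and 4 of these 8 lay within 1000 bp of a TSS.

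Width did not separate the groups in the same way in both libraries. The median was 260 bp in members against 220 bp in replicate 1, and 220 bp in both groups of replicate 2, while mean widths were 256.1 against 248.5 bp and 202.6 against 249.8 bp. Members ranged from 60 to 460 bp in replicate 1 and from 36 to 440 bp in replicate 2, and at widths over 300 and up to 400 bp the share without a footprint was 0.889% in replicate 1 (0.498% to 1.46%) and 0.419% in replicate 2 (0.154% to 0.91%). The second interval holds that library's share over all strong peaks.

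Repeats and duplicated sequence made up a small part of the footprint-free sites. Soft-masked bases, which mark repeats, averaged 2.63% of a member against 7.24% of equally strong peaks with footprints in replicate 1, and 7.3% against 6.45% in replicate 2, so the direction differed between the libraries. No member was masked over 50% of its length. A 32-mer present more than once in the genome occurred in 2 of 51 members (3.92%, 0.478% to 13.5%) in replicate 1 against 7%. In replicate 2 it was 0 of 40 (0% to 8.81%) against 7.68%, and both intervals held the comparison share. The 2 members of replicate 1 were the peak near Spns1, with 1 such 32-mer, and the one in 2610005L07Rik on chromosome 8. There 216 of 277 32-mers were repeated, up to 8 times. That last site had 7 footprints in replicate 2.

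The CTCF consensus was not found in any footprint-free site. It was searched on both strands in the 150 bp centred on each peak and occurred in 0 of 51 members in replicate 1, which allows a share of up to 5.88%, and in 0 of 40 in replicate 2, which allows up to 7.5%. Among the comparison peaks it occurred in 14.6% and 13.3% of equally strong peaks with footprints, and in 5.09% and 6.63% of all peaks. Most of these lay away from promoters, where the share with footprints was 21.8% and 22.8% and the members 0 of 16 and 0 of 8. These counts of 0 allow shares of up to 18.75% and 37.5%, so that of replicate 2 does not separate the groups. Within promoters it was only 2.57% and 1.98%, too low to differ visibly from 0 of 35 and 0 of 32. No match says only that these letters were not in these windows.

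Other short consensus sequences had mixed shares in members. SP/KLF boxes (GGGGCGGGG) occurred in 2 of 51 members (3.92%) against 6.07% in replicate 1 and in 1 of 40 (2.5%) against 8.07% in replicate 2. Among promoter peaks alone they occurred in 2 of 35 members (5.71%) against 12.8% and in 1 of 32 (3.13%) against 13.9%. The neurogenic E-box CAGATG occurred in 2 members (3.92%) against 11.5% and in 3 (7.5%) against 9.08%. The symmetric E-box CAGCTG was at 9.8% against 11.6% in replicate 1 and 15% against 10.50% in replicate 2, and ETS sites (CCGGAAGT) at 5.88% against 1.63% and 0% against 4.03%, so neither kept its direction. The NFY box CCAATCA was found in 0 of 51 members against 3.11% and in 3 of 40 (7.5%) against 4.57%. At least 1 of 17 consensus sequences was found in 14 of 51 members (27.5%, 15.9% to 41.7%) against 48.4% and in 12 of 40 (30%, 16.6% to 46.5%) against 49.6%. Without CTCF, the members' counts were unaltered and the comparison shares were 38.7% and 41%, which lie inside the members' intervals. These counts therefore do not separate the groups once CTCF is left out. Besides those named, they were CRE, searched as TGACGTCA, EGR, searched as GCGTGGGCG, YY1, searched as AAGATGGCG, SOX, searched as ACAAAGG, the TATA box, searched as TATAAAA, AP-1, searched as TGANTCA, and NFI, NRF1, MEF2, RFX and REST. With 51 and 40 members, counts of 0 to 3 do not separate most of these shares.

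The other library gives a view of each site that the choice of members did not use. Members overlapped a peak of the other library in 43 of 51 cases (84.3%, 71.4% to 93%) in replicate 1, against 97.7% of equally strong peaks with footprints and 98.8% of all strong peaks. In replicate 2 it was 35 of 40 (87.5%, 73.2% to 95.8%) against 99.5%, with 99.5% of all strong peaks. A footprint of the other library lay inside 29 of 51 members (56.9%, 42.2% to 70.7%) in replicate 1, against 96%, and 98.3% of all strong peaks. It lay inside 32 of 40 (80%, 64.4% to 90.9%) in replicate 2, against 99.5%, and 99.8% of all strong peaks. The interval of the members stayed below the comparison share in all 4 cases. With the 90th percentile or the shorter list, which leave 1 and 7 or 2 and 9 members, the difference in shared peaks was 0.308 and 1.10 percentage points, without the lower share of members. Most footprint-free sites were thus footprinted in the other library, but less often than their equals, and with fewer footprints, a median of 1 against 3 in replicate 1 and of 2 against 4 in replicate 2.

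The 2 libraries also differed in their number of footprints. Replicate 1 had 234094 footprints and replicate 2 had 154015. Members of replicate 1 had a median signal of 1.22 in replicate 2, against 1.31 in equally strong peaks with footprints, counting a missing peak as 0. Members of replicate 2 had 2.48 in replicate 1, against 2.44. Only 2 of the 43 shared members of replicate 1 were stronger in replicate 2, while 29 of the 35 shared members of replicate 2 were stronger in replicate 1. Equally strong peaks with footprints shifted the same way, from a median of 1.72 to 1.31 in replicate 1 and of 1.67 to 2.44 in replicate 2. These counts are therefore not read as a trait of the members. What sets the number of footprints per library was not tested, nor was its part in the shares above.

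**Figure D4:**
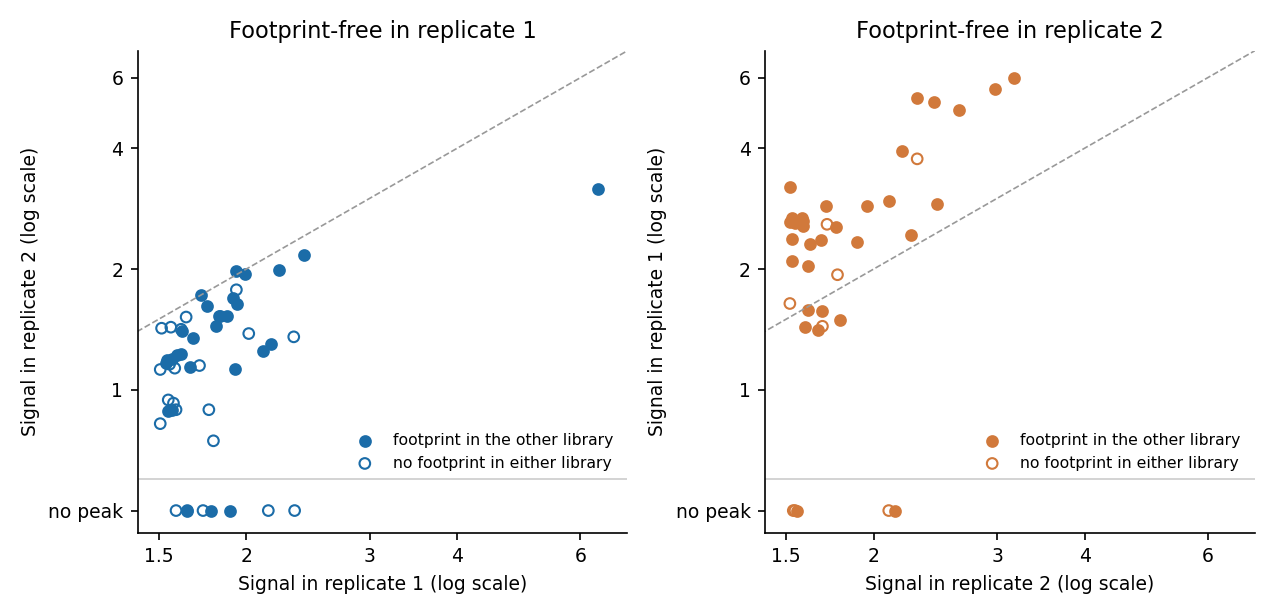
Signal of each footprint-free strong peak in its own library (horizontal, log scale) and of the strongest peak overlapping it in the other library (vertical, log scale). Peaks missing from the other library are on the bottom line, and the dashed line marks equality. Of 51 replicate 1 members 22 are open circles, without a footprint in either library, and of 40 replicate 2 members 8 are.

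Some promoters that were footprint-free in one library were densely footprinted in the other. Ssbp2, which encodes a single-stranded DNA-binding protein, had a promoter peak of 2.31 in replicate 2 and 5.35 in replicate 1, with 8 footprints there. Sp4, an Sp factor enriched in neurons, had 1.71 in replicate 2 and 2.87 in replicate 1, with 6. Stam, an endosomal sorting adaptor, had 2.10 and 2.95, also with 6. The promoter of Nudc, a factor of nuclear migration and dynein function, had 2.65 in replicate 2 and 4.996 in replicate 1, with 4. In each of these the library with the footprints had the higher signal.

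Members of replicate 1 mostly had their higher signal in replicate 1 itself, as equally strong peaks with footprints did by their medians. A replicate 2 footprint lay inside 29 of these 51 members, and only 2 of the 51 were stronger in replicate 2. Ercc1, the non-catalytic partner in a nuclease of nucleotide excision repair, had 2.42 in replicate 1 without a footprint and 2.17 in replicate 2 with 4. Insig1, which retains the sterol sensor machinery in the endoplasmic reticulum, had an intronic peak of 2.23 in replicate 1 without a footprint and 1.99 in replicate 2 with 4, shown above in capitals. Lrrc47 had 2.17 in replicate 1 and 1.30 in replicate 2, with 3 footprints. In these 3 the footprints were called in the library with the lower signal.

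No footprint in either library was called at 22 members of replicate 1 and 8 of replicate 2. Allowing 20 bp beyond the edges left 20 and 6. Of these sites 17 and 5 were peaks in both libraries. Only 2 places were strong and footprint-free in both. The Actl6a site lay inside the annotated gene, 143 bp from the nearest of its start sites, with 1.94 in replicate 1 and 1.78 in replicate 2. Actl6a encodes BAF53A, an actin-related subunit of the SWI/SNF chromatin remodeller that neural progenitors use and that neurons exchange for the Actl6b product. A stronger peak stood 80 bp away in replicate 1, with signal 5.10 and 8 footprints, and 40 bp away in replicate 2, with 3.12 and 12 footprints. The sequence shown for it is 70% GC with 38 CG dinucleotides in 300 bases and held none of the 17 consensus sequences.

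The Malat1 site lay upstream of the gene for this abundant nuclear long noncoding RNA. Its peak was 240 bp wide with 1.64 in replicate 1 and 100 bp wide with 1.52 in replicate 2, with midpoints 489 and 559 bp from the nearest start site. The strongest peak within 500 bp was not the same one in the 2 libraries. In replicate 1 it lay 280 bp away and 959 bp from a start site, with 7.61 and 4 footprints. In replicate 2 it lay 360 bp away and 39 bp from a start site, with 5.55 and 5 footprints. Its 240 bases held 13 CG dinucleotides at 57.5% GC, and none of the consensus sequences. Both places that were footprint-free in the 2 libraries thus had a stronger own peak within 500 bp in each library.

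Members without any peak in the other library numbered 8 in replicate 1 and 5 in replicate 2. All but 2 had a peak of the other library no more than 240 bp away. The highest signals were at an intergenic site 41460 bp from Nufip1 (2.34), the Tnrc6c promoter (2.15) and Ttc41 (1.90) in replicate 1. In replicate 2 they were at 4930481B07Rik (2.14), Fam76b (2.10) and Ptdss1 (1.55). The remaining 2, both of replicate 1, were the Gramd2 promoter, 11440 bp from the nearest replicate 2 peak, and the Gramd1b intron, 4607 bp away. At Gramd2, with 1.65 in replicate 1, replicate 2 listed no base below the FDR limit. At Gramd1b, which encodes a sterol transporter of the endoplasmic reticulum and had 1.59 in replicate 1, replicate 2 listed 8.5% of the bases. Gramd2 was thus the only one of these members without listed bases in the other library.

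No functional class of promoters stood out for lacking footprints. Among all genes, 35 of 10957 strong promoter peaks (0.319%) in replicate 1 and 32 of 8165 (0.392%) in replicate 2 had none. Of the strong promoter peaks of ribosomal protein genes, 0 of 92 and 1 of 85 (Rpsa) lacked a footprint. For zinc finger Zfp genes, the counts were 3 of 288 (Zfp143, Zfp219 and Zfp84) and 0 of 230. No strong promoter peak without a footprint was found for oxidative phosphorylation (0 of 81 and 0 of 71), replication-dependent histones (0 of 37 and 0 of 32), the proteasome (0 of 34 and 0 of 29), activity-regulated genes (0 of 19 and 0 of 16) or neuronal marker genes (0 of 14 and 0 of 6). At a background this low, 0 is what lists of this size would mostly show, and nothing particular to a list is read from it.

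The tissue label was checked on the promoters of defining genes over all peaks. All 5 neuronal markers (Snap25, Syt1, Rbfox3, Nefl, Map2) had a promoter peak in both libraries, as did 3 of 4 astrocyte markers. For excitatory neurons, inhibitory neurons and endothelium it was 1 of 3 each, for oligodendrocytes 1 of 4 and for microglia 0 of 3. Taken by itself, replicate 1 had one at 3 of 3 excitatory, 3 of 3 inhibitory, 3 of 4 oligodendrocyte, 1 of 3 microglia and 1 of 3 endothelial markers, and replicate 2 at 1 of 3, 1 of 3, 1 of 4, 0 of 3 and 2 of 3. Of the markers of other tissues, 0 of 2 for muscle and 0 of 2 for liver had one in both libraries, and 1 liver gene had one in replicate 1 alone.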

How the data were processed

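DNase-seq was measured in 2 libraries of 1 group. Per the deposited notes, the authors called peaks, footprints and FDR cut rates from each library's own mm10 alignments, unpooled. Peak strength is the authors' signal, normalized for read depth. The deposited p-value scale columns are FDR values per stretch of bases, all below 0.05, and a constant of 0.01 in the footprint files, of which positions alone were used. The aligner is not given in the sources used here, nor are the callers and thresholds, and read depth is unknown. The shorter deposited lists (53068 and 36975 peaks) served as an alternative. Footprint counts are numbers of overlapping intervals.

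Overlaps (1 bp), sequence features and 32-mer copy numbers were computed with Python 3.11.15, numpy 2.4.6, pandas 2.3.3, numba 0.67.0, scipy 1.17.1 and matplotlib 3.10.9, with GENCODE M21 and RefSeq's GRCm38 sequence. Overlap functions, tested on made intervals, equalled bedtools 2.31.1 for 2500 of 2500. Medians and shares of peaks with footprints were weighted to the members' signal in 20 bins. Intervals are exact (Clopper-Pearson, 95%). The limit of a count of 0 is 3 counts.

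The members, gene lists, consensus sequences and settings were chosen with earlier results of these data known. The rule for named genes took members of both libraries by mean signal rank, the 3 strongest per library without a peak in the other, the 3 on each side of the threshold and members in gene lists. All other named members, and all sequences but those at Actl6a and Malat1, were chosen after their values were seen, as were the comparisons of stronger neighbours, CTCF settings and footprints near edges and the values within promoters. Of the alternatives, 73 were planned and 24 were added after seeing the data.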

Additional observations from a re-analysis of the deposited data

How the results depend on the processing

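Values are means over the 2 libraries, as the share without a footprint or as footprint-free minus footprinted peaks. With the 90th percentile, which left 1 and 7 members, the share was 0.0581%, width −160 bp, GC −2.45, masked bases 1.70, promoters −26.8, shared peaks 0.308, other-library footprints −7.12, stronger neighbours 9.48 and CTCF consensus −6.80 percentage points. With the shorter list (2 and 9 members) they were 0.0700%, −85 bp, GC −3.65, promoters 1.79, shared peaks 1.10, other-library footprints −5.32, stronger neighbours 35.1 and CTCF −9.07. Counting footprints within 20 bp gave 0.231%, promoters 27.9, shared peaks −14.8 and stronger neighbours 64.8. Footprints of either library gave 0.0885%, width −25 bp, GC 7.87, promoters 28.1, shared peaks −28.6 and stronger neighbours 68.1. Without weighting, GC was 1.96, promoters 14.6 and CTCF −11.4, and with signal and width weighting promoters were 23.8 and CTCF −11.9. Leaving out repeated 32-mers gave promoters 30.8. Mean width differed by −19.8 bp. A window of 1000 bp gave promoters 39.8, and protein-coding TSSs alone 26.7. Reciprocal overlap of 50% gave shared peaks −31.4. Requiring most 32-mers to be repeated gave 0.130. Promoter peaks alone gave width −35 bp, GC 0.463 and CTCF −2.28. The cause was not tested. With 1 library at a time, masked bases ranged from −4.61 to 0.855, and no other result changed direction. In all, 36 of the other settings stayed within 1 SD between libraries, 29 moved further and 12 changed sign.

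The mean differences in width, GC, masked bases, promoters, shared peaks and repeated 32-mers thus changed direction in at least 1 setting. For promoters this was the 90th percentile, with −89.5 from the 1 member of replicate 1 and 35.8 from the 7 of replicate 2. The CTCF difference kept its direction in each library in the settings tried, but nothing is read from that. The consensus was in 0 of 51 and 0 of 40 members. Settings that reweight the comparison or keep only some of these members therefore cannot turn the difference. The mean stronger-neighbour and other-library footprint differences also kept their direction. In replicate 1, however, the stronger-neighbour difference was −2.35 at the 90th percentile. In that library the other-library footprint difference was 0 at the 90th percentile and 0.395 with the shorter list. No paired analysis was possible because the series has 1 group. Depth is unknown.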
